A study of Rattus norvegicus with 24 samples.

Results

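The genes described are 40 genes of mitosis and DNA replication, chosen by name: the MCM helicase and its loading factors, nucleotide synthesis enzymes, cyclins and mitotic kinases, the spindle checkpoint, the anaphase machinery, spindle motors and 2 chromosome proteins. A gene was represented by the brightest of the probe sets that carry its symbol alone, by the mean over 24 arrays, and 37 of the 40 were measured, of 14217 genes with such a probe set and 31042 probe sets in all. Cdc6 and Tpx2 matched no probe set by symbol, and Rrm2 matched only probe sets that name 2 genes, so these 3 members have no value here.

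The tissue was testis of Fisher 344 rats, freed of its capsule and snap frozen, hybridised to Affymetrix Rat230_2 arrays, which read each gene through sets of short probes. Dibutyl phthalate (DBP), a plasticiser that lowers fetal testosterone synthesis in rats, was given in corn oil by gavage. Dams were dosed daily from gestational day (GD) 12 to 20, with either the oil alone or DBP at 50 mg/kg. At GD20 there were 4 arrays from oil-treated dams (dams 2, 3, 4 and 5) and 4 from DBP-treated dams (dams 16, 18, 19 and 21), the latter killed 6 h after the last dose. The array of dam 2 was labelled as pooled from several samples. The other 16 arrays came from pups at postnatal day (PND) 35, 4 in each group, killed 6 h after a single gavage. The oil-oil pups received oil at both ages, the oil-DBP pups oil in utero and 500 mg/kg DBP at PND35, the DBP-oil pups DBP in utero and oil at PND35, and the DBP-DBP pups DBP at both. All pups of the DBP-oil and DBP-DBP groups therefore shared the fetal dose, and no group received DBP at PND35 for more than 1 dose. Litters of the pups were not given in the labels, so p-values measure the spread between these animals, some of which could be littermates.

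Replication begins with the loading of the MCM helicase onto DNA by Cdc6 and Cdt1, which geminin (Gmnn) restrains, and needs a supply of deoxynucleotides. Mitosis is driven by Cdk1 with cyclins A and B and by the Aurora and Polo kinases. It ends when Cdc20 and the anaphase-promoting complex, released from the spindle checkpoint, have securin (Pttg1) and the B cyclins destroyed. In the fetal rat testis Sertoli and somatic cells divide while most germ cells are at rest. At puberty spermatogonia divide by mitosis while spermatocytes pass through meiosis. Meiosis uses many of the same division proteins, without replication between its divisions.

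Array intensities were on a linear scale with the same 2% trimmed mean, of about 500.2, on every array, and log2 differences were taken on log2(intensity + 16). The median log2 intensity of an array was 0.65 lower in the oil-oil than in the GD20 oil group. Hence PND35 arrays were compared with GD20 arrays after each array was centred on its median, and 3 other scalings were set beside that. A positive difference between ages therefore means a higher level relative to the array's median probe set at PND35 than at GD20. The number of arrays, 4 a group, limits the precision: the 95% interval of a member's difference had a median half-width of 0.17 at GD20 and 0.22 at PND35. The RNA integrity number ranged from 8.2 to 8.9. The mean log2 intensity of the spiked-in control probe sets was 6.44 and 6.60 for dams 21 and 19 against 8.17 to 8.77 for the other fetal arrays, and it was 7.31 to 7.53 in every DBP-DBP array and in pups 132 and 134 of the DBP-oil group against 5.90 to 6.14 in the other pups. Averaged over the 37 members, the centred log2 level was lowest among all 16 pups in oil-DBP pup 111, at 3.16, and was 3.42 in oil-DBP pup 105, against 3.43 to 3.49 in the oil-oil pups.

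Promoters are shown because genes of replication and of mitosis are known to carry different control elements. Windows from 250 bases before to 50 bases after the annotated start (RefSeq, build GRCr8) were found for 32 of the 40 members. The letters searched on both strands were the CCAAT box (CCAAT), the cell cycle homology region or CHR (TTTGAA or TTCGAA) and E2F sites (TTGGCGC or TTCCCGC or TTCGCGC or TTGCCGC). E2F letters stood in 9 of the 10 windows of replication and nucleotide genes (90%), in 4 of the 22 of mitotic genes (18.2%) and in 9.52% of all 33469 windows. CHR letters stood in 3 of the 10 (30%), in 15 of the 22 (68.2%) and in 19.7% of all windows. A CCAAT box stood in 7 of the 10 (70%), in 17 of the 22 (77.3%) and in 37.5% of all windows. A match is a description of the letters and not a site shown to be bound.

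The 3 genes with the largest age difference in each direction, among those with a window, are given 5′ to 3′, on the gene's own strand, with matched letters in capitals. A capital run that reads as the reverse complement of a motif is a match on the other strand, and in Mcm2 a pair of E2F matches overlap. Cdt1 lies at chr19:67528999-67529298 (plus strand), Tyms at chr9:120776034-120776333 (minus strand), Mcm2 at chr4:122918045-122918344 (minus strand), Pttg1 at chr10:28406277-28406576 (minus strand), Aurka at chr3:181560720-181561019 (minus strand) and Cdc20 at chr5:137255750-137256049 (minus strand).
Cdt1: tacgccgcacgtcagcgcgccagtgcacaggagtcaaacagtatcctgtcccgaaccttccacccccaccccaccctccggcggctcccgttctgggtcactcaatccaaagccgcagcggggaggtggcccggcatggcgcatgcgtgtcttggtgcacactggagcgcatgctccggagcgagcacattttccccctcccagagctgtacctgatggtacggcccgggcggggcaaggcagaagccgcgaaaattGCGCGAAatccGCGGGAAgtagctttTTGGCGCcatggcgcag
Tyms: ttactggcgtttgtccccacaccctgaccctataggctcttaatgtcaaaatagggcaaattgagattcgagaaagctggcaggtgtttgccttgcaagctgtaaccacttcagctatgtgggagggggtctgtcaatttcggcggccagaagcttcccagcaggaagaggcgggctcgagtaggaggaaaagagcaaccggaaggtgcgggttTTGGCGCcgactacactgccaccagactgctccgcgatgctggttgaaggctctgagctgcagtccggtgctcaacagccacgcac
Mcm2: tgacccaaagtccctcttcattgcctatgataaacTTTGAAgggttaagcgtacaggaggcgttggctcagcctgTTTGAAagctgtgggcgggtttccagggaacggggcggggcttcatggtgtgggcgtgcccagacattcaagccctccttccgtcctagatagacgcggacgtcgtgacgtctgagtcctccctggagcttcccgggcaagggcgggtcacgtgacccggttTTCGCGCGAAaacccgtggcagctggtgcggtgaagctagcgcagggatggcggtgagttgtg
Pttg1: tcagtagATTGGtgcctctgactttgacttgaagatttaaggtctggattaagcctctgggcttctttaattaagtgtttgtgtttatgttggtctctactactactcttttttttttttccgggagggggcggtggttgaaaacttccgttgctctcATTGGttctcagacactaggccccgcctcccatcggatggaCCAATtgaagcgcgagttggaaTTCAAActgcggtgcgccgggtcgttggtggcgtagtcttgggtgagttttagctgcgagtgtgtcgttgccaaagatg
Aurka: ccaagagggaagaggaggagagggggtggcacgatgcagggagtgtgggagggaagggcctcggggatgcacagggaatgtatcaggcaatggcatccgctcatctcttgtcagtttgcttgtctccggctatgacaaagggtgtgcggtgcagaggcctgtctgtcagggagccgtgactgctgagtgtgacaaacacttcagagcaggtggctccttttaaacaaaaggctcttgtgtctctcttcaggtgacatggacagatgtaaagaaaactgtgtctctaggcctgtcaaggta
Cdc20: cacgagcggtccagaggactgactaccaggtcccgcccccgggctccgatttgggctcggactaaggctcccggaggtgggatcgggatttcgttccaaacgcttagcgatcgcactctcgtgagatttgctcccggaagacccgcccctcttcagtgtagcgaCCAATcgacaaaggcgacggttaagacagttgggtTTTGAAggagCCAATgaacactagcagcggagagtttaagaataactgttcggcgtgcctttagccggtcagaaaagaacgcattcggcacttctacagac
Cdt1, Tyms and Mcm2, whose intensities were lower at PND35, hold 3, 1 and 2 E2F matches and no CCAAT box, and Mcm2 also holds 2 CHR matches. Pttg1 and Cdc20, whose intensities were higher at PND35, hold 3 and 2 CCAAT boxes, 1 CHR match each and no E2F match. These windows were picked by age difference and do not stand for all members. Among the members with a window that were lower at PND35 under every scaling below, E2F letters stood in 9 of 11, CHR letters in 4 and a CCAAT box in 8. Among those higher under every scaling the numbers were 2, 6 and 8 of 10, so the CCAAT box was about as common in both. The windows placed at the annotated starts of Aurka, Melk and Bub1 held none of the 3 motifs. Whether these starts are the ones used in testis was not tested. A window without a match therefore does not show a promoter without the motif.

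The question of the first comparison is how the control testis of PND35 differs from that of the fetus. RNA extraction and the gavage of the pups differed together with age. So did the spike-in level, at 8.17 to 8.46 in the GD20 oil and 5.90 to 6.06 in the oil-oil arrays. Their parts in a difference between ages cannot be told apart from that of age. Between the oil-oil and GD20 oil groups the members differed in both directions. The replication and nucleotide genes Mcm2, Mcm3, Mcm4, Mcm5, Mcm6, Cdt1, Rrm1 and Tyms were lower at PND35. So were cyclin A2 (Ccna2), the spindle motors Kif11 and Kif23, Cenpe and Mki67. The regulators of mitotic entry and exit Pttg1, Aurka, Cdc20, Cks2, Bub1, Ccnb2 and Prc1 were higher. The replication genes Gmnn, Pcna and Mcm7 were also higher with median centring, though Pcna and Mcm7 were not called with quantile normalization. With median centring, 16 members were higher and 13 lower of 37, past an adjusted p of 0.05 (limma, Benjamini-Hochberg over 31042 probe sets). Among all probe sets 41.9% were higher and 25.5% lower in this comparison. The median difference was 0.052 over the members and 0.34 over all probe sets.

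The counts depended on the scaling. The median difference of all probe sets was 0.34 with median centring, 0.0034 with quantile normalization, -0.31 as deposited and -0.015 with centring on the 75th percentile. Beside the 16 higher and 13 lower with median centring, 11 members were higher and 22 lower with quantile normalization (28.5% and 33.2% of all probe sets). As deposited 12 were higher and 22 lower (20.7% and 43.3% of all probe sets), and with the 75th percentile 14 and 20 (28.2% and 34.6%). As deposited, every age difference is lower by 0.65 on the log2 scale than with median centring. Under all 4, 10 members were higher (Gmnn, Ccnb1 by its brightest probe set, Ccnb2, Cks2, Plk1, Aurka, Bub1, Cdc20, Pttg1 and Prc1) and 13 lower (Mcm2, Mcm3, Mcm4, Mcm5, Mcm6, Cdt1, Rrm1, Tyms, Ccna2, Cenpe, Kif11, Kif23 and Mki67), against 19.9% and 25.5% of all probe sets. Mad2l1, Ube2c, Cdk1, Aurkb, Kif20a and Nusap1 changed sign with the scaling and have no settled direction. In the deposited intensities of all 24 arrays, 22 members were lower in every PND35 array than in every GD20 array, 10 were higher in every one, and 5 overlapped between the ages (Mcm7, Plk1, Birc5, Bub1b and Ube2c). Of all probe sets 28.1% were lower and 14.3% higher in this way.

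The GD20 DBP and DBP-oil arrays, which share no array with the oil groups, gave another pair of ages. RNA extraction and the gavage of the pups differed with age in this pair too. This pair was chosen after the first values were seen. Of 37 members, 14 were higher and 16 lower in it (38.2% and 24% of all probe sets), and 27 members were called in the same direction in both pairs, with 0 called in opposite directions. The calls differed for Melk, Mad2l1, Cenpf, Ube2c and Nusap1.

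**Figure D1:**
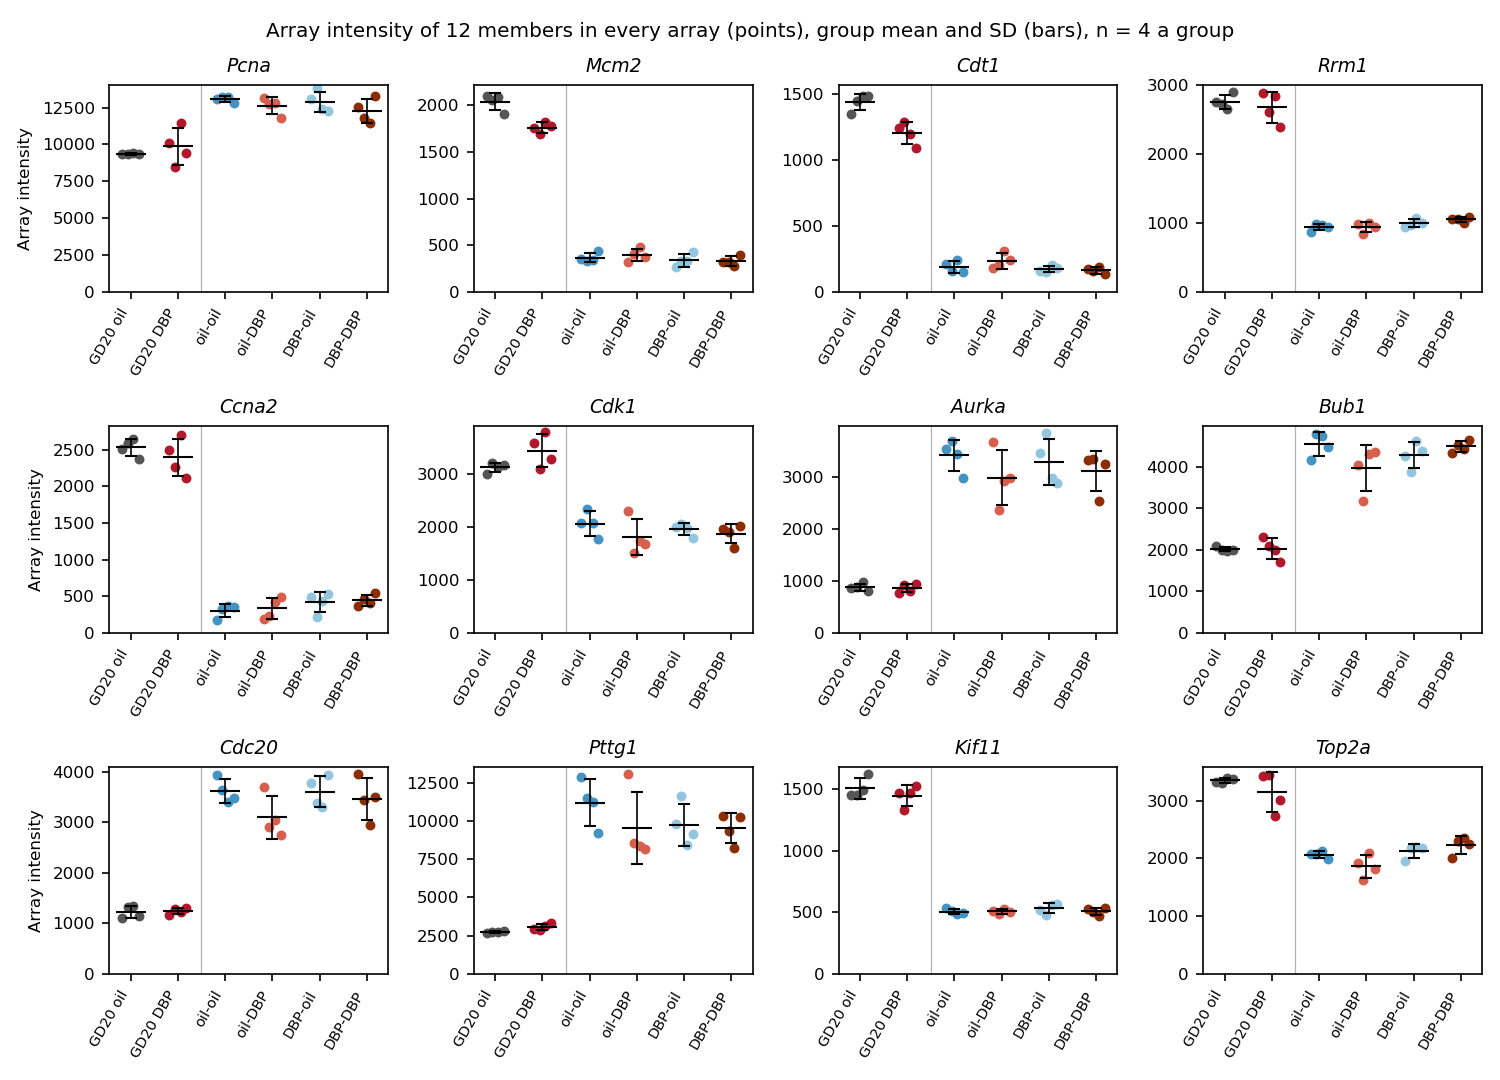
Array intensity (linear, axis from 0) of 12 members in each of 24 arrays, by group, with points for arrays and bars for the group mean and SD (n = 4). Mcm2, Cdt1, Rrm1, Ccna2 and Kif11 lie lower in all 16 PND35 arrays, and Aurka, Bub1, Cdc20 and Pttg1 lie higher.

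Among the licensing and fork genes, Mcm2, a subunit of the replicative helicase, read 2098, 2061, 2091 and 1905 in the GD20 oil arrays and 355, 335, 341 and 441 in the oil-oil arrays. Its difference was -1.77 ± 0.093 (SE; adjusted p = 6.57e-10), and -2.43 as deposited. Every oil-oil array was far below every fetal one. Mcm4, another helicase subunit, read 2016, 1881, 1781 and 2226 at GD20 and 242, 268, 211 and 291 at PND35, a difference of -2.24 ± 0.11 (SE; adjusted p = 2.35e-10), and -2.89 as deposited. Cdt1, which loads the helicase, read 1350.0, 1445, 1483 and 1483 at GD20 and 208, 159, 240.4 and 148 at PND35, with a difference of -2.20 ± 0.13 (SE; adjusted p = 1.61e-09), and -2.85 as deposited. Both were lower in every oil-oil array than in any fetal one. Mcm3 differed by -1.25 ± 0.08, Mcm6 by -0.96 ± 0.078 and Mcm5 by -0.42 ± 0.097 (SE), so the size varied over 5 subunits of 1 ring.

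Mcm7, also a helicase subunit, did not go with them. It read 3575, 3805, 3411 and 3604 in the GD20 oil arrays and 4813, 4645, 4701 and 4628 in the oil-oil arrays, a difference of 1.04 ± 0.057 (SE; adjusted p = 1.07e-09). That was 0.38 as deposited and 0.014 with quantile normalization (adjusted p = 0.836), where the call was lost. Pcna, the clamp that holds polymerases on DNA, read 9320.3, 9335, 9422 and 9325 at GD20 and 13112, 13219, 13239 and 12796 at PND35, a difference of 1.14 ± 0.052 (SE; adjusted p = 1.43e-10). It was 0.48 as deposited, and 0.084 with quantile normalization (adjusted p = 0.19). Geminin (Gmnn), which binds and blocks Cdt1, read 993, 926, 805 and 837 at GD20 and 1765, 1701, 1908 and 1621 at PND35. It was higher by 1.62 ± 0.083 (SE; adjusted p = 4.8e-10), or 0.96 as deposited, while Cdt1 was lower.

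Both nucleotide supply enzymes measured were lower at PND35. Rrm1, the large subunit of ribonucleotide reductase, read 2761, 2725, 2664 and 2898 at GD20 and 876, 982, 966 and 939 at PND35, a difference of -0.88 ± 0.067 (SE; adjusted p = 3.81e-08). Tyms, which makes thymidylate, read 556, 505, 523 and 535 at GD20 and 100.2, 64.1, 60.8 and 85.1 at PND35, a difference of -1.91 ± 0.15 (SE; adjusted p = 6.69e-08). No array of an age overlapped the other age for either gene.

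Among 10 cyclins and mitotic kinases, 6 were higher and 1 lower at PND35. The lower one was Ccna2, the cyclin of S phase and early mitosis, with 2505, 2598, 2651 and 2374 at GD20 and 170.2, 327, 361 and 352 at PND35, a difference of -2.40 ± 0.19 (SE; adjusted p = 4.57e-08) after centring and -3.05 as deposited. Aurka, the kinase of centrosomes and spindle assembly, went the other way, from 856, 874, 973 and 809.8 at GD20 to 3538, 3678, 3444 and 2981 at PND35, a difference of 2.59 ± 0.082 (SE; adjusted p = 2.71e-12) after centring and 1.94 as deposited. Cks2, a small subunit of Cdk complexes, differed by 1.92 ± 0.083, Ccnb2 by 1.65 ± 0.067, Plk1 by 1.15 ± 0.089 and Birc5 by 0.66 ± 0.088 (SE), the last at 0.0042 as deposited. Cdk1, the kinase that the cyclins activate, read 3008, 3206, 3136 and 3178 at GD20 and 2085, 2334, 2069.9 and 1776 at PND35, and its difference was 0.052 ± 0.08 (SE; adjusted p = 0.576) with median centring and -0.60 as deposited. Its deposited intensity was thus lower in every oil-oil array, and with median centring it was not called. With quantile normalization 6 of these 10 genes were higher and 4 lower, with Cdk1, Aurkb and Melk among the lower. With median centring Aurkb, the kinase of the chromosomal passenger complex, differed by 0.12 ± 0.091 (SE; adjusted p = 0.247) and Melk by -0.15 ± 0.076 (SE; adjusted p = 0.0901).

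Cyclin B1 depends on the probe set. The brighter one gave 2134, 1828, 2312 and 2168 at GD20 and 4461, 4385, 4019 and 3577 at PND35, a difference of 1.61 ± 0.083 (SE; adjusted p = 5.11e-10). A second probe set of Ccnb1 gave -1.44 ± 0.089 (SE; adjusted p = 3.79e-09) in the same arrays. With the mean of its probe sets the difference was 0.088 (adjusted p = 0.215), so the gene as a whole has no settled direction. The counts of members higher at PND35, those of promoters included, hold Ccnb1 by its brighter probe set only. With median centring, dimmer probe sets also differed in their call for Racgap1 (0.72, higher) and Top2a (-0.36, lower), where the brightest was not called. For Mad2l1 the others gave 1.15 (higher) and 0.096 (not called). For Cdc20 the next brightest gave 1.80, and 3 dim ones 1.53, -0.081 and -0.66. Those of Gmnn (0.97), Kif11 (-0.73) and Kif23 (-0.89) were called in the direction of the brightest.

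Of the 5 checkpoint and kinetochore genes, Bub1 stood out. This checkpoint kinase read 2094, 2005, 1978 and 1994 at GD20 and 4165, 4794, 4755 and 4484 at PND35, a difference of 1.82 ± 0.067 (SE; adjusted p = 1.34e-11) and of 1.16 as deposited. Bub1b, its partner at unattached kinetochores, differed by 0.70 ± 0.071 (SE; adjusted p = 8.47e-07), but by 0.047 as deposited (adjusted p = 0.596). Cenpe, the motor that ties chromosomes to microtubules, was lower, with 892, 992, 916 and 932 at GD20 and 265, 273, 193 and 292 at PND35, a difference of -1.16 ± 0.12 (SE; adjusted p = 1.16e-06). Cenpf, a large kinetochore protein, did not pass the test with median centring (-0.22 ± 0.12, SE; adjusted p = 0.121) and was called lower as deposited.

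Of the 3 anaphase genes, Pttg1 and Cdc20 were higher under every scaling. Pttg1, the securin that keeps sister chromatids together until anaphase, read 2677, 2738, 2743 and 2809 in the GD20 oil arrays and 12881, 11533, 11229.8 and 9204 in the oil-oil arrays. It was higher by 2.67 ± 0.082 (SE; adjusted p = 1.94e-12) after centring, by 2.02 as deposited and by 1.64 with quantile normalization, where Aurka, at 1.87, was above it. Cdc20, which directs the anaphase-promoting complex to securin, read 1102, 1327, 1339.8 and 1144 at GD20 and 3942, 3649.8, 3396 and 3479.7 at PND35, a difference of 2.20 ± 0.08 (SE; adjusted p = 1.21e-11). Ube2c, the ubiquitin-conjugating enzyme of that complex, read 2342, 2609, 2697 and 2550.3 at GD20 and 2825, 2451, 2414 and 2059 at PND35. Its difference was 0.58 ± 0.084 with median centring and -0.071 as deposited.

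Spindle genes differed in both directions. Kif11, the motor that pushes spindle poles apart, read 1456, 1451, 1494 and 1628 at GD20 and 532, 509, 488 and 495 at PND35, a difference of -0.89 ± 0.071 (SE; adjusted p = 6.41e-08). Kif23, a motor of the central spindle, differed by -1.25 ± 0.11 (SE; adjusted p = 2.44e-07), and Racgap1, its partner in centralspindlin, by -0.099 ± 0.075 (SE; adjusted p = 0.255). Prc1, which bundles microtubules at the same midzone, read 2559, 2650.2, 2652 and 2489 at GD20 and 5423, 4830.1, 4774 and 4553 at PND35 and was higher by 1.57 ± 0.062 (SE; adjusted p = 3.04e-11). Kif20a and Nusap1 were at 0.0072 and 0.055. Of the chromosome proteins, Top2a, which untangles DNA, read 3333, 3304, 3394 and 3376 at GD20 and 2079, 2071, 2129 and 1991 at PND35, a difference of -0.039 ± 0.055 (SE; adjusted p = 0.543) after centring and -0.69 as deposited. Mki67, the usual marker of cycling cells, was lower by either scaling, at -0.72 ± 0.10 (SE; adjusted p = 2.6e-05) and -1.37.

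**Figure D2:**
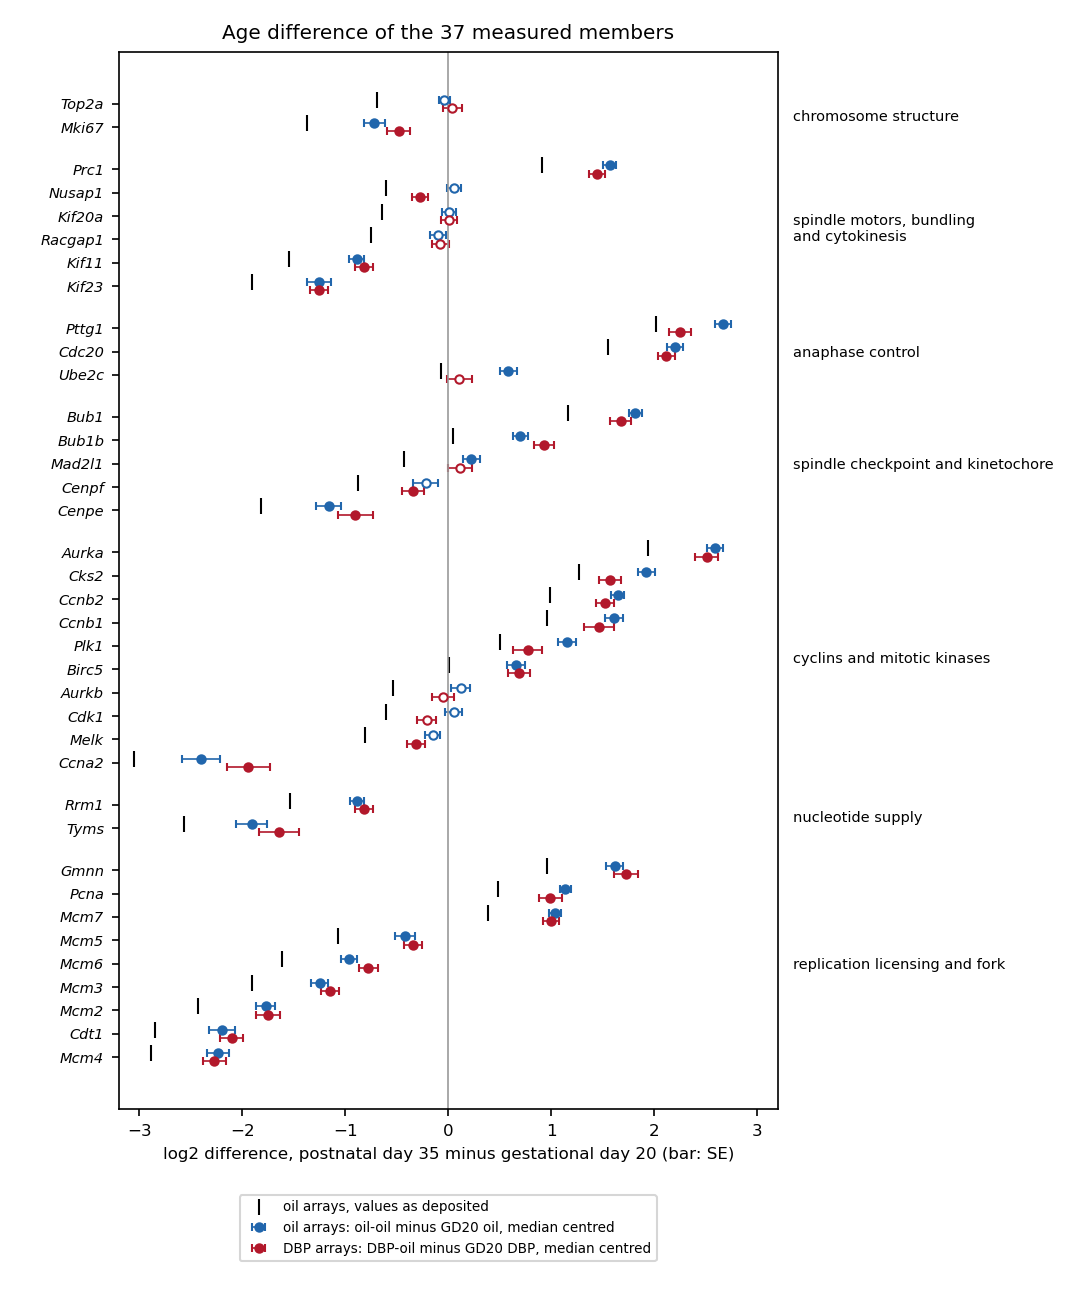
Log2 difference between PND35 and GD20 for each of 37 members, grouped by role, with bars for the SE and filled points for an adjusted p under 0.05. Blue points are the oil arrays, red points the DBP arrays (both median centred), and black ticks the oil arrays as deposited. Licensing and nucleotide genes other than Gmnn, Pcna and Mcm7 lie left of 0 and Pttg1, Aurka and Cdc20 farthest right on all 3 marks.

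Other genes of the cell cycle, taken from lists chosen for their roles, differed in both directions as well. Of 27 other replication genes measured, 8 were higher and 15 lower at PND35, and 5 and 15 under all 4 scalings. The shares over all probe sets were 41.9% and 25.5% with median centring and 19.9% and 25.5% under all 4, and these hold for the next lists too. The lower ones included thymidine kinase Tk1 (-2.04 ± 0.091, SE; adjusted p = 1.04e-10), the polymerase subunit Pola1 (-1.94 ± 0.15, SE; adjusted p = 5.02e-08) and the maintenance methyltransferase Dnmt1 (-1.53 ± 0.12, SE; adjusted p = 5.59e-08), and the higher ones the clamp loader subunit Rfc4 (1.72 ± 0.069, SE; adjusted p = 3.59e-11). Of 40 other mitotic genes, 22 were higher and 16 lower, and 10 and 16 under all 4 scalings. Pbk, a mitotic kinase, was at 2.58 ± 0.071, the passenger protein Cdca8 at 2.51 ± 0.096 and separase (Espl1), the protease that securin holds back, at 2.10 ± 0.091, against -1.88 ± 0.11 for the condensin subunit Smc2 (SE). Of 20 genes of G1 to S control, 8 were higher and 9 lower, and 4 and 9 under all 4 scalings. The Cdk inhibitor Cdkn1c was lowest (-3.60 ± 0.13, SE; adjusted p = 9.13e-12), with Ccnd3 (-2.12 ± 0.097) and Ccnd2 (-2.06 ± 0.11), and Cdkn1a was highest (2.10 ± 0.16, SE; adjusted p = 3.79e-08).

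Cell content differed between the ages in the same arrays. All 8 spermatocyte markers measured and all 10 spermatid markers were higher at PND35, with median differences of 4.37 and 8.32, under all 4 scalings. The spermatid marker Prm1 went from 46.0 ± 16.7 at GD20 to 35180.1 ± 3517 in the oil-oil group and the spermatocyte marker Sycp3 from 1438 ± 131 to 14081 ± 916 (SD, n = 4). The spermatocyte marker Sycp1, at 1.63 ± 1.54, was near 0 in the fetus. Of 10 Sertoli cell markers, 3 were higher and 6 lower with median centring, and all 5 endothelial markers were lower. Of 7 gonocyte and spermatogonia markers 4 were higher and 1 lower, and of 7 Leydig cell markers 0 were higher and 5 lower. Of 6 peritubular myoid markers 1 was higher and 5 lower, and of 7 leukocyte markers 1 was higher and 2 lower. All 3 blood markers were lower. The part of cell content in the members' differences was not tested. In bulk tissue fewer cells of a type and less RNA per cell cannot be told apart.

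The next comparison asks what repeated fetal exposure to DBP did at GD20. None of the 37 members passed the test (limma, adjusted p of 0.168 or more for each). Among all probe sets 0.209% were higher and 0.232% lower. The median difference was 0.00034 over the members and -0.0084 over all probe sets. Every member's 95% interval lay within 0.5 of 0 on the log2 scale.

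Within that range 4 licensing genes were near the low end. Cdt1 read 1350.0, 1445, 1483 and 1483 in the oil arrays and 1241, 1289, 1193 and 1091 in the DBP arrays, a difference of -0.26 ± 0.069 (SE; adjusted p = 0.168). Mcm2 read 1753, 1687, 1821 and 1778 in the DBP arrays, a difference of -0.21 ± 0.06 (SE; adjusted p = 0.197). Mcm6 read 2631, 2826, 2847 and 3070.2 in the oil arrays and 2451, 2289, 2625 and 2554 in the DBP arrays (-0.20 ± 0.069, SE; adjusted p = 0.288). Mcm3 differed by -0.16 ± 0.06 (SE; adjusted p = 0.316). The other helicase genes Mcm4, Mcm5 and Mcm7 were at 0.0093, -0.064 and -0.043.

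At the other end, Ube2c read 2342, 2609, 2697 and 2550.3 in the oil arrays and 2892, 2615, 3363 and 2968 in the DBP arrays, a difference of 0.21 ± 0.081 (SE; adjusted p = 0.331), with a small overlap. Nusap1 was at 0.18 ± 0.062 (SE; adjusted p = 0.284) and Pttg1 at 0.16 ± 0.064 (SE; adjusted p = 0.34). Cks2, at 5572, 6610.3, 5753 and 5635 against 6649, 5605, 7580.3 and 7448, overlapped (0.20 ± 0.10, SE; adjusted p = 0.455). Cenpe read 962, 865, 672 and 729.8 in the DBP arrays, a difference of -0.22 ± 0.10 (SE; adjusted p = 0.436), with its lowest arrays those of dams 19 and 21. Among the DBP arrays Nusap1 was highest in dam 16, and Ube2c, Cks2 and Pttg1 were highest in dams 19 and 21. These dams were also apart in the spike-in level, as given above, and in spermatid markers: the mean centred log2 level of 10 such markers was 0.78 in dam 21 and -0.94 in dam 19, against -1.77 to -1.53 in the other 6 fetal arrays. The part of these differences in the members' values was not tested, and without dam 19 or dam 21, as without any other dam, 0 members passed. The remaining first members of the role groups, Pcna, Rrm1, Cdk1, Bub1, Cdc20, Kif11 and Top2a, lay between -0.093 and 0.13. Of the other cell cycle genes, cyclin D2 (Ccnd2) was lower (-0.87 ± 0.16, SE; adjusted p = 0.045), the only one of 20 in G1 to S control past the threshold, and 0 of 27 replication and 0 of 40 mitotic genes passed.

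Between oil-DBP and oil-oil, the comparison gives the effect of 1 dose of DBP at PND35, 6 h after gavage, without fetal DBP. In the oil-DBP group 2 of 37 members were lower than in the oil-oil group, Mcm7 and Nusap1, and 0 were higher. Among all probe sets 4.15% were lower and 4.77% higher, so the share of members called, 5.41%, was near the background. The members' differences were negative for 30 of 37, with a median of -0.16 against -0.081 for all probe sets. That median lay between -0.078 and -0.23 under every alternative run.

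Mcm7 read 4813, 4645, 4701 and 4628 in the oil-oil arrays and 4148, 3674, 4137 and 4138 in the oil-DBP arrays. Its difference was -0.29 ± 0.074 (SE; adjusted p = 0.0164), with no overlap, and pup 111 was the lowest. Nusap1, which binds and bundles spindle microtubules, read 1917, 1997, 1903 and 1722 in the oil-oil arrays and 1917, 1346, 1555 and 1412 in the oil-DBP arrays, a difference of -0.35 ± 0.11 (SE; adjusted p = 0.0435). Its oil-DBP arrays lay below the oil-oil arrays except for pup 105, which read 1917. The Mcm7 call was lost with quantile normalization, without the intensity trend, with the RNA integrity number as a covariate, with only the 2 groups fitted and without pup 111 (adjusted p from 0.0722 to 0.122). The Nusap1 call was lost in 14 of 23 alternatives (adjusted p up to 0.22).

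Pup 105 lay above the other oil-DBP pups in several mitotic genes. Pttg1 read 12881, 11533, 11229.8 and 9204 in the oil-oil arrays and 13052, 8576, 8380.2 and 8147 in the oil-DBP arrays, the highest being pup 105, and did not pass the test (-0.32 ± 0.14, SE; adjusted p = 0.185). Cdc20 read 3703, 2901, 3045 and 2749 in the oil-DBP arrays, again highest in pup 105 (-0.29 ± 0.11, SE; adjusted p = 0.0895). A second Cdc20 probe set was lower past the threshold, at -0.42 ± 0.11 (SE; adjusted p = 0.0179). Gmnn, at 1638, 1349, 1660.5 and 1352, overlapped the oil-oil arrays (1765, 1701, 1908 and 1621) as deposited and lay below all of them once centred, without passing the test (-0.29 ± 0.098, SE; adjusted p = 0.0715). Prc1 (-0.27 ± 0.087, SE; adjusted p = 0.0533), Bub1 (-0.27 ± 0.098, SE; adjusted p = 0.0928) and Cdk1 (-0.26 ± 0.12, SE; adjusted p = 0.19) were negative and not called. Aurkb read 774, 783, 779 and 635 in the oil-oil arrays and 681, 564, 720.0 and 594 in the oil-DBP arrays, with an overlap through pup 120 (-0.28 ± 0.12, SE; adjusted p = 0.163).

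Without pup 105, 11 members were lower and 0 higher: Mcm7, Gmnn, Cdk1, Ccnb2, Cks2, Plk1, Aurka, Cdc20, Pttg1, Prc1 and Nusap1. The genes called in this fit were listed after pup 105 had been seen to read high in several of them. Their p-values are therefore no independent support. In that fit 8.77% of all probe sets were lower and 6.08% higher. Pttg1 was at -0.49 ± 0.12 (SE; adjusted p = 0.00792), Nusap1 at -0.47 ± 0.091 (SE; adjusted p = 0.00153), Cdk1 at -0.40 ± 0.11 (SE; adjusted p = 0.0148) and Prc1 at -0.36 ± 0.08 (SE; adjusted p = 0.00477). Of the 11, 2 are among the 9 licensing and fork genes measured, and the other 9 act in mitosis, the role of most members. Without pup 111, 0 members passed in limma, and their median was -0.11 against -0.071 for all probe sets. The share of all probe sets called in that fit is not given here. The helicase genes other than Mcm7 and Mcm3 had positive values with all pups, as did Cdt1, with Mcm2 at 0.024, Mcm5 at 0.044, Mcm6 at 0.062, Cdt1 at 0.22 and Mcm4 at 0.25, none past the threshold.

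Spermatid markers also set pup 105 apart from the other oil-DBP pups. The mean centred log2 level of 10 spermatid markers was 6.24 in pup 105 and 5.65, 5.51 and 5.63 in pups 111, 115 and 121, against 5.94 to 6.44 in the oil-oil pups. That of 8 spermatocyte markers was 4.59 in pup 105 and 4.31 to 4.46 in the other 3, against 4.45 to 4.69 in the oil-oil pups. Peritubular myoid markers were 2.34 to 2.48 in the oil-DBP pups, pup 105 included, and 1.83 to 1.96 in the oil-oil pups. The part of these cell types in the members' values was not tested. RNA integrity numbers were 8.5 to 8.7 in the oil-DBP and 8.2 to 8.6 in the oil-oil group, and with that number as a covariate the members' median was -0.078 and 0 passed.

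**Figure D3:**
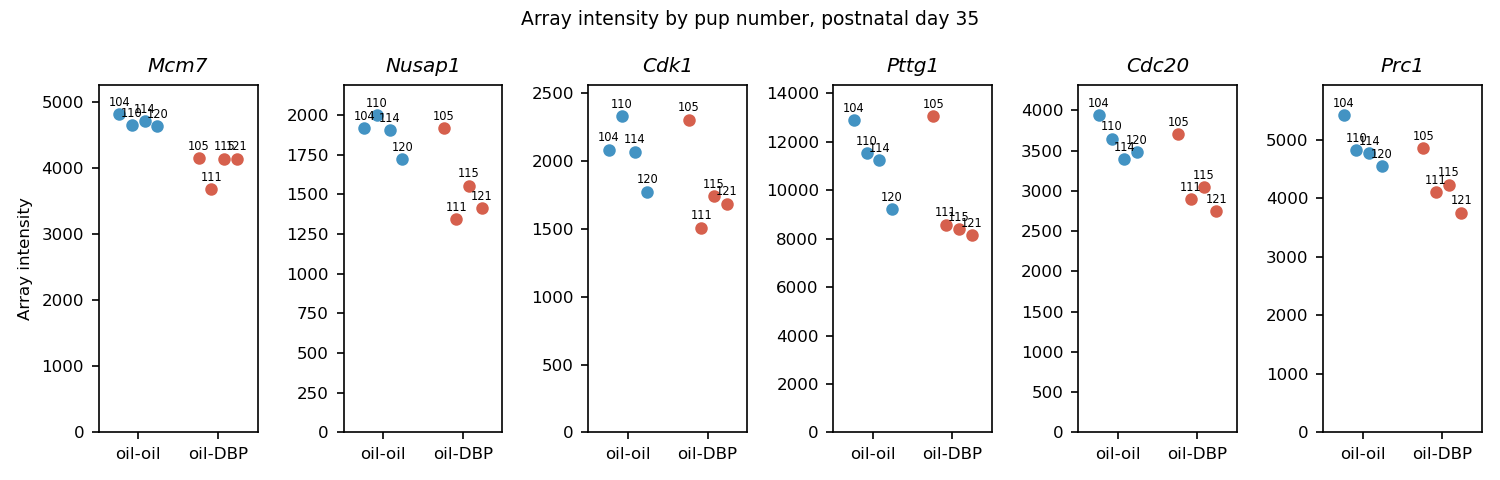
Array intensity (linear, axis from 0) of 6 members in the oil-oil and oil-DBP groups, with each point marked by its pup number. Pup 105 lies among the oil-oil pups for Nusap1, Cdk1, Cdc20 and Prc1, just above them for Pttg1, and with its own group for Mcm7.

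Some regulators of entry into S phase had larger differences in the same arrays. The Cdk inhibitor Cdkn1a was higher in the oil-DBP group (1.69 ± 0.17, SE; adjusted p = 6.09e-07), as was the growth factor response gene Myc (2.73 ± 0.23, SE; adjusted p = 4.26e-08), and the Cdk inhibitor Cdkn1b was lower (-1.23 ± 0.19, SE; adjusted p = 0.000124). These 3 were the only ones of 20 called, under all 4 scalings. Of 27 other replication genes, Rpa1 (-0.52 ± 0.12, SE; adjusted p = 0.00806) and Tk1 (-0.60 ± 0.16, SE; adjusted p = 0.0215) were lower and 0 higher. Of 40 other mitotic genes 3 were lower and 0 higher: Cdca8 (-0.43 ± 0.13, SE; adjusted p = 0.0476), the kinetochore subunit Spc24 (-0.37 ± 0.10, SE; adjusted p = 0.025) and Espl1 (-0.32 ± 0.094, SE; adjusted p = 0.0389), of which Spc24 passed under all 4 scalings.

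Another comparison gives the same dose after fetal DBP. Between the DBP-DBP and DBP-oil groups 0 of 37 members passed the test in limma. Among all probe sets 3.64% were higher and 1.58% lower. The members' median was -0.052 against -0.063 for all probe sets, and 10 were positive and 27 negative. Gmnn read 1938, 1778, 1801 and 1811 in the DBP-oil arrays and 1615, 1779, 1426 and 1774 in the DBP-DBP arrays (-0.17 ± 0.098, SE; adjusted p = 0.441). Birc5 read 766, 726, 654 and 648 and, in the DBP-DBP arrays, 715, 625, 553 and 641 (-0.16 ± 0.12, SE; adjusted p = 0.602). Both overlapped between the groups. Mcm7, at -0.15 ± 0.074 (SE; adjusted p = 0.337), read 4753, 4572, 4588 and 4538 in the DBP-oil arrays and 4343, 4384, 4075 and 4023 in the DBP-DBP arrays. The deposited DBP-DBP values were all below the DBP-oil ones, while centred values overlapped. Mcm5 read 501, 536, 571 and 554 in the DBP-oil arrays and 469.9, 465, 517 and 519.7 in the DBP-DBP arrays (-0.15 ± 0.10, SE; adjusted p = 0.555). The highest differences were those of Cenpf, with 734, 841, 864 and 913 in the DBP-oil and 779, 897, 1111 and 984 in the DBP-DBP arrays (0.14 ± 0.13, SE; adjusted p = 0.69), and Ccna2 (0.13 ± 0.29, SE; adjusted p = 0.894), whose arrays are given below. Nusap1 read 1779, 1796, 1780.2 and 1688 in the DBP-oil arrays and 1841, 1837, 1540.0 and 1707 in the DBP-DBP arrays, with pup 133 lowest (-0.047 ± 0.11, SE; adjusted p = 0.896). Pttg1 read 9809, 11609, 8452 and 9144 in the DBP-oil arrays and 10327, 9332, 8213 and 10234 in the DBP-DBP arrays, which overlap. Cdkn1a (1.57 ± 0.17, SE; adjusted p = 1.95e-06), Myc (3.00 ± 0.23, SE; adjusted p = 1.1e-08) and Cdkn1b (-0.74 ± 0.19, SE; adjusted p = 0.0185) were called here too, each in the direction it had without fetal DBP.

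Whether the acute difference depended on the fetal dose was tested by the interaction. It was past the threshold for 0 of 37 members in limma and for 0% of all probe sets. Bub1 was at 0.32 ± 0.14 and Top2a at 0.27 ± 0.12 (SE, adjusted p = 0.954 for both). Besides Bub1, the largest values were Cdt1 (-0.31 ± 0.26), Nusap1 (0.30 ± 0.15), Plk1 (0.27 ± 0.20), Aurkb (0.27 ± 0.17) and Pttg1 (0.27 ± 0.20; SE, adjusted p = 0.954 for each). The median half-width of its 95% interval was 0.32, and 20 of 37 intervals lay within 0.5 of 0, and the other intervals reached past it. Mcm7, called in 1 comparison and not in the other, was thus not shown to differ between them.

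A further comparison asks what fetal DBP left at PND35. Between DBP-oil and oil-oil 0 of 37 members passed in limma, against 0.00322% of all probe sets called, or 1 probe set. Bub1b read 1340.2, 1255, 1149.8 and 1159.9 in the oil-oil arrays and 1514, 1338, 1547 and 1382 in the DBP-oil arrays (0.22 ± 0.099, SE; adjusted p = 0.646). Ccna2 had the largest difference (0.41 ± 0.29, SE; adjusted p = 0.815) and the widest interval. Its oil-oil arrays read 170.2, 327, 361 and 352, with pup 104 low, and its DBP-oil arrays 495, 218, 435 and 525, with pup 127 low. Plk1 read 1586, 1756, 1588 and 1363 in the oil-oil arrays and 1229, 1673, 1334 and 1039 in the DBP-oil arrays (-0.28 ± 0.14, SE; adjusted p = 0.699). Ube2c read 2282, 2489, 1989 and 1708 in the DBP-oil arrays (-0.23 ± 0.14, SE; adjusted p = 0.764). These and Pttg1 (-0.22 ± 0.14, SE; adjusted p = 0.799), with arrays given above, overlapped between the groups. Mki67 read 986, 1334, 1196 and 1405 in the oil-oil arrays and 1324, 1261, 1593 and 1535 in the DBP-oil arrays, also with an overlap (0.20 ± 0.11, SE; adjusted p = 0.722). The median over the members was -0.022.

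Between DBP-DBP and oil-DBP, which share the dose at PND35, 0 of 37 members and 0% of all probe sets passed in limma. Mki67 read 1002, 1121, 1284 and 1243 in the oil-DBP arrays and 1363, 1378, 1435 and 1398 in the DBP-DBP arrays (0.29 ± 0.11, SE; adjusted p = 0.404). Bub1b read 1207, 935, 1217 and 1179 in the oil-DBP arrays and 1389, 1481, 1305 and 1313 in the DBP-DBP arrays (0.30 ± 0.099, SE; adjusted p = 0.344). Ccna2 had the largest difference (0.52 ± 0.29, SE; adjusted p = 0.632), with 190.1, 228, 427 and 491 in the oil-DBP arrays and 369, 465, 412 and 542 in the DBP-DBP arrays. Its oil-DBP arrays spread widely, with pups 105 and 111 low, and overlapped the others. Cdt1 read 179, 204, 312 and 241 in the oil-DBP arrays and 171, 159.9, 192 and 132 in the DBP-DBP arrays (-0.43 ± 0.18, SE; adjusted p = 0.479). Cenpe read 330.5, 164, 232 and 205 in the oil-DBP arrays and 357, 254, 261 and 269 in the DBP-DBP arrays (0.33 ± 0.21, SE; adjusted p = 0.677). Both overlapped between the groups. Top2a read 1920.3, 1626, 2089 and 1809.8 in the oil-DBP arrays and 2007, 2307, 2351 and 2254 in the DBP-DBP arrays, with 1 crossing pair of arrays (0.29 ± 0.083, SE; adjusted p = 0.292).

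Every DBP-DBP array was in the high class of spike-in intensity and every oil-DBP array in the low class, while the DBP-oil group held both. With the class added to the model of 16 arrays, the members' median in this comparison was 0.19 in place of 0.092, and again 0 members passed. The oil-oil and oil-DBP arrays each enter several comparisons, the interaction included, so the values of these comparisons are not independent.

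The first member of each role group is given here for the arrays not yet described. Pcna read 10122, 8437, 11439 and 9434 in the GD20 DBP arrays, 13162, 12749, 12783 and 11791 in the oil-DBP, 13049, 13795, 12390.4 and 12296 in the DBP-oil and 12539.8, 11776, 11443 and 13316 in the DBP-DBP arrays. Rrm1 read 2883, 2609, 2842 and 2389 in the GD20 DBP arrays, 983, 842, 1001 and 947 in the oil-DBP, 937, 965, 1072 and 1000.2 in the DBP-oil and 1058, 1062, 999.7 and 1088 in the DBP-DBP arrays. Cdk1 read 3590.4, 3095, 3804 and 3295 in the GD20 DBP arrays, 2307, 1510.4, 1740.4 and 1687 in the oil-DBP, 1999, 2064, 1977 and 1792 in the DBP-oil and 1965, 1913, 1606 and 2016 in the DBP-DBP arrays. For Cdk1, pup 111 was the lowest of all pups and pup 105 the next to highest. Bub1 read 2314, 2097, 1989 and 1717 in the GD20 DBP arrays, 4038, 3175, 4301 and 4363 in the oil-DBP, 4252, 3879, 4626 and 4388 in the DBP-oil and 4338, 4537, 4439.7 and 4650.4 in the DBP-DBP arrays, with pup 111 again lowest of the pups. Kif11 read 1468, 1328, 1471 and 1528 in the GD20 DBP arrays, 511, 485, 530.0 and 504 in the oil-DBP, 519.9, 481, 562 and 571 in the DBP-oil and 527, 499, 471 and 539 in the DBP-DBP arrays. For Kif11 the 4 groups of pups overlapped. Cdc20 read 1171, 1283, 1216 and 1303 in the GD20 DBP arrays, 3773, 3395, 3316 and 3949.9 in the DBP-oil and 3966, 3435, 2953 and 3511 in the DBP-DBP arrays. Top2a read 3435, 3441, 2738 and 3011 in the GD20 DBP arrays and 1953, 2187, 2194 and 2183 in the DBP-oil arrays, with dam 19 the lowest of the fetal arrays.

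**Figure D4:**
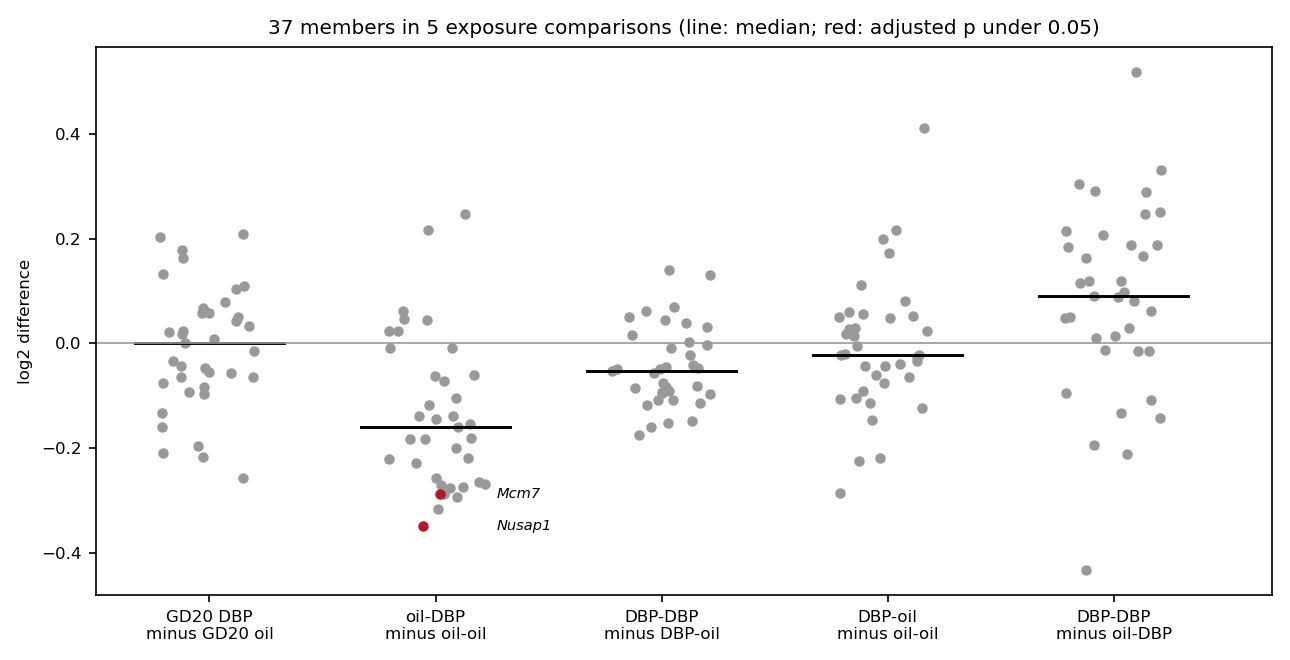
Log2 difference of each of 37 members (points) in 5 comparisons between exposures, with the median as a line and members past an adjusted p of 0.05 in red. The medians lie between -0.16, in oil-DBP minus oil-oil, where Mcm7 and Nusap1 passed, and 0.092, in DBP-DBP minus oil-DBP.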

How the data were processed

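The deposited array intensities were made by the authors with GCOS 1.0, per the submitters' processing notes, from Affymetrix Rat230_2 arrays. How probes were summarised is not stated (not given in the sources used here). Each of 24 arrays had the same 2% trimmed mean, as a global scaling gives. RNA of GD20 testes was taken with Trizol and a column, and that of PND35 testes with AllPrep except for pups 104 and 115, per the labels' protocols.

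From the deposited values, 57 control probe sets of 31099 were left out and log2(intensity + 16) was tested with limma 3.58.1 in R 4.3.3 (lmFit, eBayes with an intensity trend), with Benjamini-Hochberg adjustment over 31042 probe sets, and calls were made under 0.05. The GD20 fit used 8 arrays as deposited. The PND35 fit used 16 arrays of 4 groups, and the age fit 8 control arrays, both after centring each array on its median. Probe set names came from the platform annotation: 20826 probe sets had 1 symbol, 436 several and 9780 none. Promoter sequences came from RefSeq (GRCr8).

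The members and lists were chosen with earlier results of these data known, and the lists are no independent evidence. The values of every array were to be given for members past the threshold between exposures, for up to 6 with the largest difference in each comparison and for the first member of each role, with up to 4 genes named for each other list and comparison. Interaction values are given without the arrays. Some further members (among them Gmnn, Ccnb1, Prc1, Ube2c and Mki67) are given in full because their values were seen. Marker genes were named as examples of their lists.

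On simulated data with known changes, the oil-DBP against oil-oil fit recovered 61% of changes of 1 log2 unit and 91% of changes of 2 log2 units, over 31042 probe sets, and the GD20 fit 63% and 92%. The changes were put into 100 probe sets of each size, drawn at random whatever their brightness. They were larger than any member's difference between exposures. The rates therefore do not tell how often differences as small as the members' would be found. The alternatives are scaling, pseudocount, probe set choice, covariates, array weights, blocks and leaving out each array.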

Additional observations from a re-analysis of the deposited data

Results flagged for a closer look

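In each of 222 sets of 4 arrays (37 members in 6 groups), 1 array was looked for that stood far from the other 3, and 16 sets held one. By chance about 1 set in 20 does, so these counts are near what chance gives, and no cause is given for any of them.

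Among the oil-DBP pups, pup 105 was high for Pttg1 (13052.5, the others 8147 to 8576) and for Ccnb2 (5865.53). Pup 111 was low for Mcm7 (3673.72, the others 4137 to 4148) and for Bub1b (935.417). These pups are the ones whose omission changed the count of members called most. Among the oil-oil pups, pup 104 was low for Ccna2 (170.211, the others 327 to 361) and pup 120 for Aurkb (634.647).

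Among the DBP-DBP pups, pup 133 was low for both Aurora kinases (Aurka 2532.23 and Aurkb 596.994), pup 124 was high for Cenpe (357.044) and Ube2c (2214.26), and pup 135 was high for Melk (919.492). Among the DBP-oil pups, Nusap1 was low in pup 134 (1687.64) and Top2a in pup 123 (1953.22).

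At GD20, dam 21 of the DBP group was low for Mki67 (2416.51, the others 3218 to 3304) and for Mcm3 (1769.23), and dam 4 of the oil group was high for Pcna, at 9422.01 against 9320.3 to 9335 in the others.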

How the results depend on the processing

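No paired analysis was possible because the groups share no replicate number: each dam and pup has its own. With adjacent pup numbers as a random block the consensus correlation was 0.054, and no count of members called moved by over 1.5 times.

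The age counts by direction moved with the scaling, from 16 higher and 13 lower to 11 and 22 with quantile normalization, 12 and 22 as deposited and 14 and 20 at the 75th percentile. Of the counts over both directions, that of oil-DBP against oil-oil moved by over 1.5 times: from 2 to 0 with quantile normalization, without the intensity trend, with the RNA integrity number as a covariate or with only these groups fitted, to 1 as deposited, with the mean of a member's probe sets, with the extraction method as a covariate or without the Trizol arrays, and to 4 with array weights. Leaving out 1 array gave 0 (without pup 111) to 11 (without pup 105). The cause of these moves was not tested. Apart from the fit without pup 105, these counts are given without the share of all probe sets called. They therefore show nothing particular to the members.

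The members' median for the age comparison, 0.052, was -0.77 with quantile normalization, -0.60 as deposited, -0.30 with centring on the 75th percentile, 0.12 and -0.096 with pseudocounts of 1 and 64, and -0.048 in the DBP arrays, the latter chosen after seeing the data. Leaving out 1 array gave 0.011 to 0.094. Mad2l1 turned to -0.14, -0.43 and -0.13 with quantile normalization, as deposited and at the 75th percentile, and Ube2c to -0.33 and -0.071 with the first 2. The other medians that moved were 0.039 for GD20 with median centring, 0.013, 0.015 and 0.064 for DBP-oil against oil-oil (quantile normalization, mean of probe sets, RNA integrity number), and 0.19 for DBP-DBP against oil-DBP when spike-in class was added to the model. The fits without pup 105 that list the genes called were added after seeing the data.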
